A study of Mus musculus with 12 samples.

Results

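The complement and coagulation factors made by the liver were followed across retinoid X receptor alpha (RXRα) genotype and dietary retinoic acid (RA). The genes were chosen by name, 38 in all, and a gene was measured when the array had a probe set that its annotation ties to that gene alone. This held for 35 of the 38 among 12393 genes measured in the series, 15 of them of complement and 20 of clotting, its inhibitors and fibrinolysis. C4b was left out because its only probe set also carries the symbol of C4a, and for C3 and Cpb2 the annotation used here named no probe set. Of each gene with several probe sets, the one with the highest mean signal was used.

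Liver RNA of 12 mice was hybridised to Affymetrix mouse genome arrays, 1 mouse per array and 3 mice per group. The groups were hepatocyte RXRα-deficient mice on RA (KO_RA), the same mutants on normal diet (KO), wild type mice on RA (WT_RA) and wild type mice on normal diet (WT). RA was given at 150 mg per kg of diet for 7 days. All mice were of the C57BL/6 background, and the wild type mice were male and 12 weeks old. In the mutants the fourth exon of Rxra, floxed and encoding the DNA-binding domain, was removed by Cre under the albumin promoter, which is active in hepatocytes. Other liver cells were thus not targeted, and a shortened protein that keeps its ligand-binding domain was still made.

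Complement is a cascade of plasma proteases that tags and lyses microbes. Lectins such as mannose-binding lectin recognise sugars on the surface, proteases cut the next components in turn, and the terminal components assemble into a pore in the membrane. The clotting cascade works alike: zymogens made by hepatocytes activate one another until thrombin turns fibrinogen into fibrin, while antithrombin, protein C with protein S, and plasmin hold the clot in check. Hepatocytes secrete most of these proteins, and several of the genes, those of fibrinogen among them, are known to be raised in the acute phase of inflammation. RXRα is the shared partner of several nuclear receptors of the liver, including the RA receptors.

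A pair of arrays stood apart. The Actb control for the 3′ end of the transcript gave 9.12 log2 units on KO 1 and 9.40 on WT_RA 3, whereas the other arrays gave 12.1 to 12.9. KO 1 also gave the lowest of the 12 values for 13 of the 35 genes, among them Mbl1, Hc, Plg and Serpinf2, whereas KO_RA 2 gave the highest value for 10. The part of these arrays in the results was not tested beyond leaving them out. Array medians lay between 6.26 and 6.35, and the 35 genes ranged from 8.61 to 13.94, all above the array medians. Hepatocyte markers (10 of 14 measured) had mean signals of 13.2 to 13.4 in KO_RA, 13.2 to 13.4 in KO, 13.2 to 13.5 in WT_RA and 13.5 to 13.6 in WT. Single markers were less even: Apob read 11.23 on KO 1 and 11.30 on WT_RA 3, against 12.87 to 13.28 on the other arrays. Fabp1 was lower in KO_RA than in WT_RA (-1.56, limma adjusted p = 0.0368). Tat was higher in KO_RA than in KO (0.92, limma adjusted p = 0.0376). Rxra itself read 10.91, 10.76 and 10.85 in KO_RA, 10.11, 10.66 and 10.84 in KO, 10.49, 10.20 and 9.9967 in WT_RA, and 10.82, 10.51 and 10.37 in WT. The position of this probe set with respect to the removed exon is unknown here, and its values therefore do not check the genotype.

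The promoters of 28 of the 35 genes were found in RefSeq (GRCm38.p6), each as 250 bases before and 50 after the transcription start. Mbl2 is shown as the 1 gene of the 35 that was called as lower in KO_RA than in WT_RA. Of the other called members, Kng1 is among those with no promoter found, and the windows of C8g are described below but not shown. F7 is shown because it was the only one with a direct repeat of the nuclear receptor motif spaced by 1 base, and Fga, Fgb and Fgg because they encode the 3 chains of fibrinogen and lie side by side. Sequences run 5′ to 3′ on the strand of the gene, and capitals mark matches on either strand to AGGTCA or to the looser pair NGGNCA and AGGNCA with 1 base between them (nuclear receptors), to TTCNNNGAA (STAT factors), to TTGCNNNAA (C/EBP factors) or to GTTAAT (HNF1). They lie at chr19:30232678-30232977, plus strand (Mbl2), chr8:13025784-13026083, plus strand (F7), chr3:83025903-83026202, plus strand (Fga), chr3:83049814-83050113, minus strand (Fgb) and chr3:83007474-83007773, plus strand (Fgg).
Mbl2: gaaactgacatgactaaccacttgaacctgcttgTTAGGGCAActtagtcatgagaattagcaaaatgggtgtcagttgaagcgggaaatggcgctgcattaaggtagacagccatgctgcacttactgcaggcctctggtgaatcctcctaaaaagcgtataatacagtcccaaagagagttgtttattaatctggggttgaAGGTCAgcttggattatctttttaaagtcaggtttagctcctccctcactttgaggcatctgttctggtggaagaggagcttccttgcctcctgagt
F7: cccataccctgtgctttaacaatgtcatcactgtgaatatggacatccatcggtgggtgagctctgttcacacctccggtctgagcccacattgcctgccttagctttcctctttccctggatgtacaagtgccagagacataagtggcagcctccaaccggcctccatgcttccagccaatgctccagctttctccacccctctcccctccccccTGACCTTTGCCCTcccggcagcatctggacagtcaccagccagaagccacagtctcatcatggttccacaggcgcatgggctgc
Fga: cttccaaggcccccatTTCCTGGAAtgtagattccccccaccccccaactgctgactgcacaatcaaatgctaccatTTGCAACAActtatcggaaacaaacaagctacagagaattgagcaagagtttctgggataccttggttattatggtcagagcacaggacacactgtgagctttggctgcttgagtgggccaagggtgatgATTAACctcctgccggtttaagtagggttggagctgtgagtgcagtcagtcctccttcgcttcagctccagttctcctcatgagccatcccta
Fgb: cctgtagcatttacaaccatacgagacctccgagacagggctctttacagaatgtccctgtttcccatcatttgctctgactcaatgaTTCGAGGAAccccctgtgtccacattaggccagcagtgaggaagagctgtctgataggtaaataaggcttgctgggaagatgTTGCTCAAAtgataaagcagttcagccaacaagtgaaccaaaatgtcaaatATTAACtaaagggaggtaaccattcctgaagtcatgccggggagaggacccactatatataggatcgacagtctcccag
Fgg: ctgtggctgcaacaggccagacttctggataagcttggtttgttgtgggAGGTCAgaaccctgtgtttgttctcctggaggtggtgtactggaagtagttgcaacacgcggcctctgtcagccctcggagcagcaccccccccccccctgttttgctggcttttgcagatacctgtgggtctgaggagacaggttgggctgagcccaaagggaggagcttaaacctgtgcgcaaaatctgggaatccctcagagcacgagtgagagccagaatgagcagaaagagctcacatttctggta

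In Mbl2 the motif AGGTCA lies at -47 to -42 from the start, and a C/EBP pattern at -216 to -208 on the opposite strand. F7 carries the repeat TGACCTTTGCCCT at -34 to -22, read on the opposite strand, and this pair was found in 0.798% of the 32851 promoters of the same length in the RefSeq table. A pair of AGGTCA with 5 bases between, which RA receptors are known to bind, was in 0 of the 28 promoters and in 0.00913% of all. AGGTCA alone, which overlaps both pairs, was found in 11 of the 28 (39.3%) and in 16.3% of all promoters. GTTAAT was found in 10 (35.7%) against 7.1%, TTCNNNGAA in 7 (25%) against 8.3%, TTGCNNNAA in 5 (17.9%) against 9.56%, and the NF-κB pattern of GGGA and CC with 4 bases between in 4 (14.3%) against 20.7%. The longer HNF1 pattern, GTTAAT and ATTAA with 1 base between, was found in Hc alone and in 0.0609% of all. Fga and Fgb each hold a STAT, a C/EBP and an HNF1 pattern, and Fgg holds AGGTCA but none of these 3. C8g, which fell under RA in wild type mice, has 2 annotated starts, and neither window holds any of the 8 motifs. Genes with several starts were counted once if any window held the motif, whereas the share over all was taken per window. A match describes the letters of these windows and not a site in use.

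Over the 35 genes, few differences passed the test. Their median absolute difference in log2 units was 0.15 in WT_RA against WT (0.098 over all genes) and 0.23 in KO_RA against KO (0.12 over all genes). It was 0.11 in KO against WT (0.13 over all genes) and 0.077 in KO_RA against WT_RA (0.12 over all genes). Differences are on the log2 scale with the standard error (SE) of a linear model fitted with limma to all 12 arrays (n = 3 per group), and calls were made below 0.05 after Benjamini-Hochberg adjustment over all 12393 genes. Under RA in wild type mice (WT_RA minus WT) Kng1 rose, C8g fell and 33 genes did not pass, against 1.27% of all genes called (0.871% higher and 0.403% lower). For RXRα deficiency under RA (KO_RA minus WT_RA) Mbl2 fell and 34 did not pass, against 3.95% of all genes called (3.03% lower). For RXRα deficiency on normal diet (KO minus WT, 1.32% of all genes called) and for RA in KO mice (KO_RA minus KO, 0.5% called) limma called 0 of the 35. In these comparisons 10 and 18 of the 35 had an unadjusted p under 0.05, against 16.3% and 14% of all genes. The 95% interval of all 35 genes lay within 1 log2 unit of no change in each of these 4 comparisons, with extremes of -0.91 and 0.85. The same held for 11720 to 11807 of all 12393 genes, so it is not particular to these 35. KO_RA and WT_RA each enter a pair of these comparisons, as do KO and WT, so the comparisons are not independent.

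**Figure D1:**
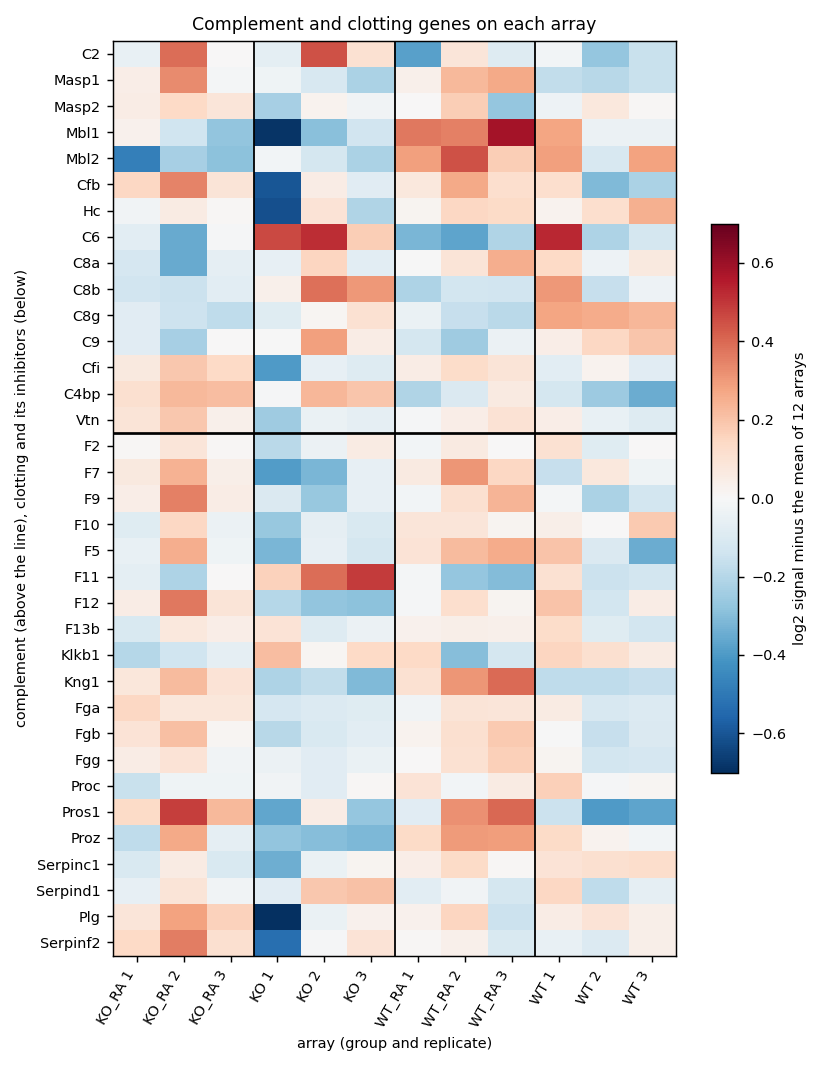
log2 signal of each of the 35 genes (rows, complement above the horizontal line and clotting with its inhibitors below) on each of the 12 arrays (columns, grouped as KO_RA, KO, WT_RA and WT), as the difference from that gene's mean over the 12 arrays. Red is above and blue below the mean, KO 1 is the lowest array for 13 genes, and Mbl2 is blue on all 3 KO_RA arrays and red on all 3 WT_RA arrays.

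Whether the arrays of a pair of groups overlapped was counted as well. For RA in KO mice 22 of the 35 genes had no overlap between KO_RA and KO, 17 higher and 5 lower in KO_RA, whereas 20.9% of all genes had no overlap (8.58% higher and 12.3% lower). The 17 were 5 of 15 complement genes and 12 of 20 clotting genes. Without KO 1, an array on which many of these genes were lowest, 17 genes were still higher without overlap and 8 lower. Of all genes 31% then had no overlap (13.3% higher and 17.7% lower). These counts without single arrays were chosen after seeing the data. Under RA in wild type mice 9 genes had no overlap, 7 higher and 2 lower in WT_RA, against 16.6% of all genes (8.77% higher and 7.86% lower). The count was 17 without WT 1, against 33.4% of all genes, and 15 of these were higher, against 16.8% of all genes higher. It was also 17 without WT_RA 1, against 26.7%, and 13 of these were higher, against 13.3% higher. For RXRα deficiency the count was 9 on normal diet, 2 higher and 7 lower in KO, against 20.1% of all genes (9.85% higher and 10.2% lower), and 16 without WT 1, against 28.7%. Under RA it was 6, 2 higher and 4 lower in KO_RA, against 25.6% of all genes (11.3% higher and 14.3% lower). It was 10 to 13 without KO_RA 1, KO_RA 2, WT_RA 1 or WT_RA 2, against 31.8% to 42.6% of all genes. Since none of the 22 genes was called by limma, their differences in KO mice are given as values only. In bulk liver, fewer cells of a type and less RNA per cell cannot be told apart.

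**Figure D2:**
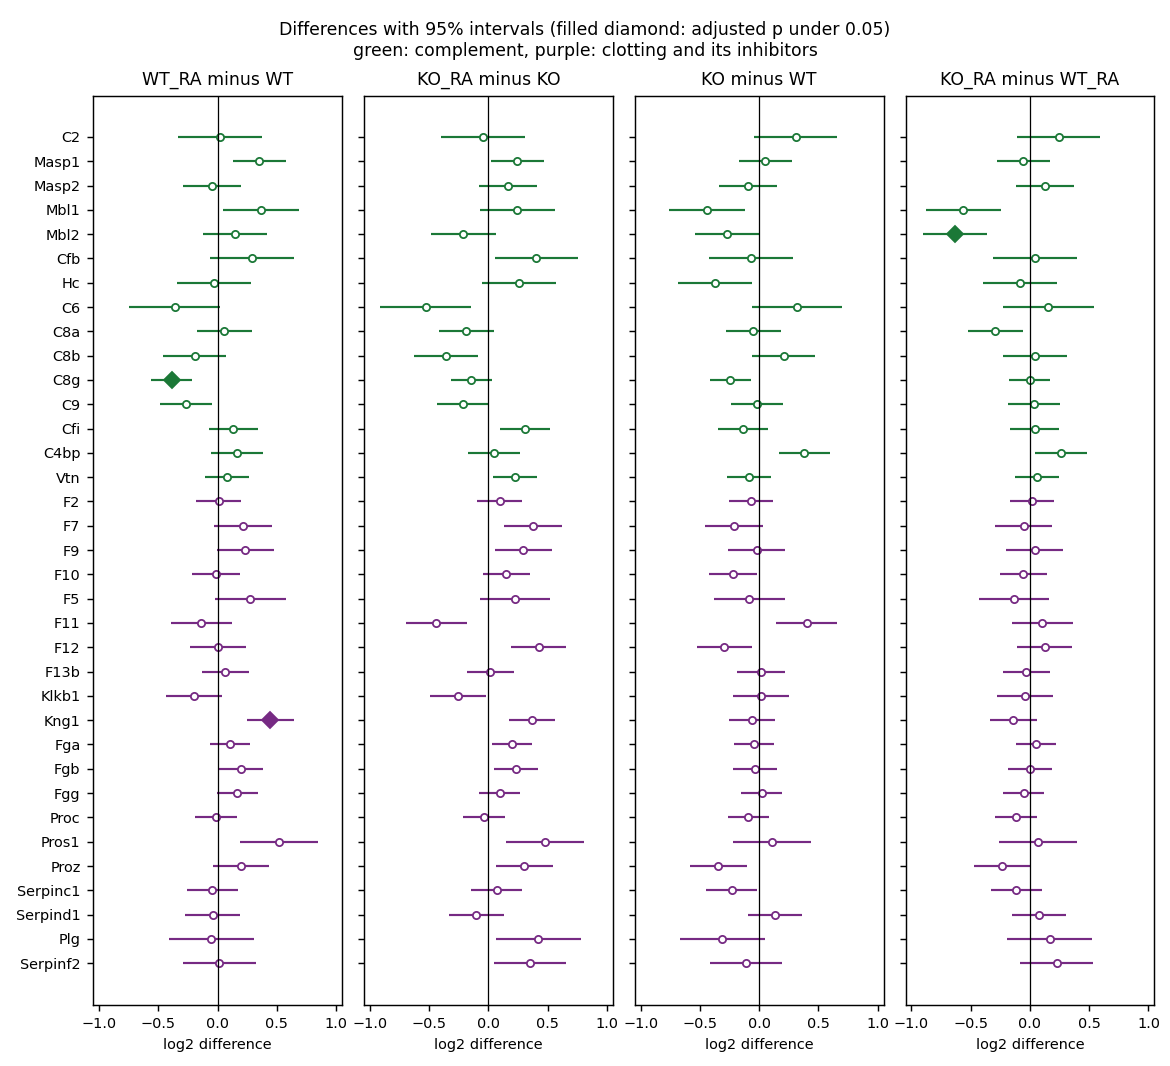
Differences of the 35 genes (rows, complement in green and clotting with its inhibitors in purple) on the log2 scale in WT_RA minus WT, KO_RA minus KO, KO minus WT and KO_RA minus WT_RA, each with its 95% interval from limma (n = 3 per group). Filled diamonds mark the 3 calls at an adjusted p under 0.05: Kng1 (0.45) and C8g (-0.39) in WT_RA minus WT, and Mbl2 (-0.63) in KO_RA minus WT_RA.

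The recognition molecules and proteases of the lectin and classical pathways (C2, Masp1, Masp2, Mbl1 and Mbl2) held the largest genotype difference. Mbl2, a mannose-binding lectin gene at chr19:30232906-30239687, read 10.32, 10.57 and 10.51 in KO_RA, 10.78, 10.67 and 10.58 in KO, 11.08, 11.25 and 10.97 in WT_RA, and 11.09, 10.69 and 11.08 in WT. All KO_RA arrays lay below all WT_RA arrays. Mbl2 fell by 0.63 ± 0.12 in KO_RA relative to WT_RA (SE, n = 3 per group, limma adjusted p = 0.0172), that is to 0.644 of the WT_RA level. The call was absent without WT_RA 2 (adjusted p = 0.0569) or KO_RA 1 (0.0824). On normal diet the difference between KO and WT was -0.28 ± 0.12 (adjusted p = 0.301), and the WT array 2 lay among the KO arrays. RA moved Mbl2 by -0.21 ± 0.12 in KO mice and by 0.15 ± 0.12 in wild type mice, and the test of the difference between these RA effects gave -0.36 ± 0.18 (adjusted p = 0.452).

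Mbl1, the other mannose-binding lectin gene of the mouse, read 10.33, 10.15 and 10.02 in KO_RA, 9.61, 10.002 and 10.16 in KO, 10.66, 10.65 and 10.88 in WT_RA, and 10.57, 10.26 and 10.25 in WT. The mutant arrays lay below the wild type arrays of the same diet in both diets. The difference was -0.56 ± 0.15 in KO_RA against WT_RA (adjusted p = 0.055) and -0.44 ± 0.15 in KO against WT (adjusted p = 0.174), so neither passed. Under RA Mbl1 did pass beside Mbl2 when KO 1 or WT 1 was left out, arrays that enter this comparison only through the shared estimate of the spread. Mbl1 was higher by 0.37 ± 0.15 in WT_RA than in WT (adjusted p = 0.328), with no overlap. C2, which supplies the protease of the classical and lectin C3 convertase, read 10.25, 10.69 and 10.30 in KO_RA, 10.23, 10.74 and 10.41 in KO, 9.92, 10.38 and 10.21 in WT_RA, and 10.28, 10.03 and 10.14 in WT. Its arrays overlapped between groups, and C2 was 0.24 ± 0.16 higher in KO_RA than in WT_RA (adjusted p = 0.477). The lectin-associated protease gene Masp1 differed by 0.35 in WT_RA against WT and by 0.24 in KO_RA against KO, without overlap in either (adjusted p = 0.153 and 0.322). Masp1 had 5 probe sets that disagreed, and 3 of them were negative for KO_RA against KO (-0.39, -0.32 and -0.12). Masp2 differed by -0.09 to 0.17 over the 4 comparisons, and a further Masp2 probe set gave 0.49 in WT_RA against WT, where the one used gave -0.05.

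**Figure D3:**
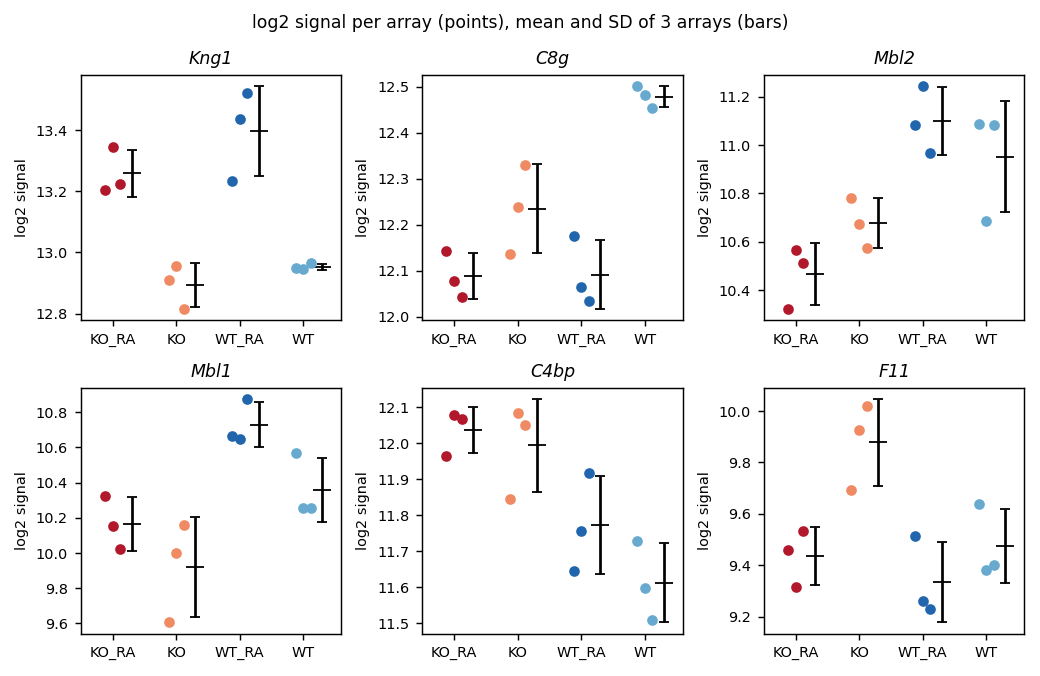
log2 signal on each array (points) of Kng1, C8g, Mbl2, Mbl1, C4bp and F11 in KO_RA, KO, WT_RA and WT, with the mean and SD of 3 arrays (bars). Axes do not start at 0 and differ between panels. Kng1 lies at 13.21 to 13.35 in KO_RA and 12.81 to 12.96 in KO, and C8g at 12.03 to 12.18 in WT_RA and 12.45 to 12.50 in WT.

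Of the 6 terminal components, C8g fell under RA in wild type mice, and none was called in KO mice. Their median difference was -0.23 in WT_RA against WT and -0.20 in KO_RA against KO, with 5 of 6 negative in each, whereas the medians of all genes were -0.01 and -0.03. The exceptions were C8a in wild type and Hc in KO mice. Without WT 1 the median in wild type mice was -0.11, a value chosen after seeing the data. C8g, which encodes the gamma chain of C8 (chr2:25498650-25501777), read 12.14, 12.08 and 12.04 in KO_RA, 12.14, 12.24 and 12.33 in KO, 12.18, 12.06 and 12.03 in WT_RA, and 12.50, 12.48 and 12.45 in WT. The 3 WT arrays were the 3 highest of the 12. C8g fell by 0.39 ± 0.08 in WT_RA relative to WT (limma adjusted p = 0.0384), to 0.765 of the WT level. It differed by -0.24 ± 0.08 in KO against WT without overlap (adjusted p = 0.167) and by -0.15 ± 0.08 in KO_RA against KO (adjusted p = 0.432). The call in wild type mice was lost in 9 of the 12 fits with 1 array removed (adjusted p of 0.0521 to 0.151), in particular without WT_RA 3 (0.151).

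C6, an early component of the pore, read 11.12, 10.84 and 11.19 in KO_RA, 11.65, 11.71 and 11.36 in KO, 10.88, 10.82 and 10.98 in WT_RA, and 11.72, 10.98 and 11.07 in WT. C6 was the member with the largest decrease in KO mice on RA, -0.53 ± 0.18 in KO_RA against KO (adjusted p = 0.219), and WT 1 lay with the KO arrays. The corresponding difference in wild type mice was -0.36 ± 0.18 (adjusted p = 0.457). C8b, the beta chain gene, read 11.11, 11.09 and 11.16 in KO_RA, 11.27, 11.62 and 11.54 in KO, 11.02, 11.11 and 11.10 in WT_RA, and 11.54, 11.07 and 11.20 in WT. KO_RA lay below KO on every array, by -0.36 ± 0.12 (adjusted p = 0.225). C9, which polymerises to form the pore wall, read 12.68, 12.53 and 12.76 in KO_RA, 12.76, 13.05 and 12.81 in KO, 12.64, 12.52 and 12.72 in WT_RA, and 12.81, 12.91 and 12.96 in WT. WT_RA lay below WT without overlap, by -0.27 ± 0.10 (adjusted p = 0.296), and the KO_RA and KO ranges touched only at 12.76 log2 units. C8a, the alpha chain gene, read 12.03, 11.79 and 12.08 in KO_RA, 12.09, 12.30 and 12.08 in KO, 12.15, 12.24 and 12.40 in WT_RA, and 12.29, 12.11 and 12.22 in WT. All KO_RA arrays lay below all WT_RA arrays, by -0.29 ± 0.11 (adjusted p = 0.166). Hc, which encodes C5, read 12.31, 12.39 and 12.35 in KO_RA, 11.72, 12.43 and 12.12 in KO, 12.36, 12.48 and 12.47 in WT_RA, and 12.36, 12.45 and 12.58 in WT. The KO 1 value of 11.72 was far below the others, and Hc differed by -0.37 ± 0.14 in KO against WT with overlap (adjusted p = 0.232).

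Among the remaining complement genes, C4bp showed the clearest genotype difference that did not pass. C4bp, the cofactor for cleavage of C4b (chr1:130635921-130661657), read 11.96, 12.08 and 12.07 in KO_RA, 11.85, 12.09 and 12.05 in KO, 11.65, 11.76 and 11.92 in WT_RA, and 11.73, 11.60 and 11.51 in WT. Both mutant groups lay above the wild type group of the same diet without overlap. The difference was 0.38 ± 0.10 in KO against WT (adjusted p = 0.095) and 0.26 ± 0.10 in KO_RA against WT_RA (adjusted p = 0.181). C4bp passed in KO against WT when KO 1 and WT_RA 3 were left out together, and after a further quantile normalization. Cfi, the protease that inactivates C3b and C4b, differed by 0.31 ± 0.10 in KO_RA against KO (adjusted p = 0.181) and by 0.13 in WT_RA against WT, both without overlap. Cfb, the protease of the alternative pathway, differed by 0.41 ± 0.16 in KO_RA against KO (adjusted p = 0.296), where KO 1 was the lowest array, and by 0.29 in WT_RA against WT. Vtn, which encodes vitronectin, an inhibitor of pore assembly, differed by 0.22 in KO_RA against KO.

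The contact system held the 1 clotting gene that passed. Kng1 encodes kininogen, the cofactor of the contact pathway and the precursor of bradykinin (chr16:23058220-23082078). It read 13.21, 13.35 and 13.22 in KO_RA, 12.91, 12.96 and 12.81 in KO, 13.23, 13.44 and 13.52 in WT_RA, and 12.95, 12.95 and 12.96 in WT. Both RA groups lay above both normal diet groups without overlap. Kng1 rose by 0.45 ± 0.09 in WT_RA relative to WT (limma adjusted p = 0.0342), a 1.36-fold rise. In KO mice RA moved it by 0.36 ± 0.09 (adjusted p = 0.0949), and the difference of the RA effects was -0.08 ± 0.13 with a 95% interval of -0.36 to 0.20. The call in wild type mice was lost in 7 of the 12 fits with 1 array removed (adjusted p of 0.0532 to 0.143), and without both KO 1 and WT_RA 3 (difference 0.38, adjusted p = 0.13). A further Kng1 probe set gave 0.25 ± 0.08 in WT_RA against WT (adjusted p = 0.222 over all 22626 probe sets). The mouse has a closely related gene, Kng2, whose transcripts the probes may share.

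F11 and F12, zymogens of the contact and intrinsic pathways, had differences of opposite sign under RA in KO mice, neither of which passed. F11 (chr8:45240659-45262055) read 9.46, 9.31 and 9.54 in KO_RA, 9.69, 9.92 and 10.02 in KO, 9.52, 9.26 and 9.23 in WT_RA, and 9.64, 9.38 and 9.40 in WT. All KO arrays were above all others, so F11 was -0.44 ± 0.12 in KO_RA against KO (adjusted p = 0.121) and 0.40 ± 0.12 in KO against WT (adjusted p = 0.131). F12, the zymogen that starts contact activation, read 11.19, 11.51 and 11.22 in KO_RA, 10.94, 10.86 and 10.85 in KO, 11.13, 11.26 and 11.15 in WT_RA, and 11.33, 11.01 and 11.19 in WT. The KO arrays were the lowest here, with a difference of 0.42 ± 0.11 in KO_RA against KO (adjusted p = 0.103) and -0.29 ± 0.11 in KO against WT (adjusted p = 0.205). The RA effect on F12 in wild type mice was 0.00 ± 0.11, and F12 was the only one of the 35 with an unadjusted p under 0.05 for the difference of RA effects (0.42 ± 0.15, adjusted p = 0.312), against 11.7% of all genes. Klkb1, the prekallikrein gene, was lower by 0.26 ± 0.11 in KO_RA than in KO without overlap (adjusted p = 0.319). F5, the cofactor of factor X, and F13b, the carrier subunit of the fibrin crosslinking enzyme, differed in WT_RA against WT by 0.28 and 0.07 and in KO_RA against KO by 0.22 and 0.02. A further F5 probe set gave 0.79 for KO_RA against KO and -0.04 for WT_RA against WT. In KO_RA against WT_RA it gave 0.26, where the one used gave -0.14. Both size and sign for F5 thus depend on the probe set.

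None of the vitamin K dependent zymogens F2, F7, F9 and F10 passed. Their differences lay between 0.09 and 0.37 in KO_RA against KO and between -0.01 and 0.23 in WT_RA against WT. In KO against WT all 4 were negative, and F10 differed by -0.22 without overlap (limma adjusted p = 0.261). Further F10 probe sets gave 0.21 and 0.19 in WT_RA against WT, where the one used gave -0.01. In KO_RA against WT_RA they gave -0.32 and -0.18, where the one used gave -0.06. F7, which starts the extrinsic pathway with tissue factor and whose promoter holds the repeat shown above, read 10.48, 10.66 and 10.46 in KO_RA, 10.03, 10.10 and 10.36 in KO, 10.48, 10.73 and 10.56 in WT_RA, and 10.25, 10.49 and 10.39 in WT. KO_RA lay above KO without overlap, by 0.37 ± 0.11 (adjusted p = 0.162), and F7 was -0.05 ± 0.11 in KO_RA against WT_RA. F2, which encodes prothrombin, had differences between -0.07 and 0.09 over the 4 comparisons.

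None of the 3 fibrinogen genes passed. Fgb, the beta chain gene, read 13.82, 13.94 and 13.74 in KO_RA, 13.53, 13.62 and 13.65 in KO, 13.75, 13.84 and 13.91 in WT_RA, and 13.72, 13.56 and 13.62 in WT. The RA groups lay above the normal diet group of the same genotype without overlap, by 0.23 ± 0.09 in KO_RA against KO (adjusted p = 0.251) and by 0.19 ± 0.09 in WT_RA against WT (adjusted p = 0.397). Fga and Fgg, the alpha and gamma chain genes, differed by 0.20 and 0.09 in KO_RA against KO, both without overlap, and by 0.10 and 0.17 in WT_RA against WT, both with overlap. Genotype differences of the 3 genes lay between -0.05 and 0.05 under RA and between -0.05 and 0.02 on normal diet. The widest 95% interval bound among them was 0.42, in KO_RA against KO.

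The anticoagulants were led by protein S. Pros1, the cofactor of activated protein C, read 9.14, 9.49 and 9.23 in KO_RA, 8.64, 9.06 and 8.74 in KO, 8.93, 9.32 and 9.41 in WT_RA, and 8.86, 8.61 and 8.64 in WT. It had the largest increase of the 35 genes under RA in both genotypes, 0.52 ± 0.15 in WT_RA against WT (adjusted p = 0.149) and 0.48 ± 0.15 in KO_RA against KO (adjusted p = 0.2), without overlap in either. Proz, which encodes protein Z, a cofactor for inhibition of factor X, read 10.22, 10.66 and 10.33 in KO_RA, 10.12, 10.10 and 10.08 in KO, 10.53, 10.70 and 10.69 in WT_RA, and 10.53, 10.43 and 10.38 in WT. KO lay below every other group, by -0.34 ± 0.11 against WT (adjusted p = 0.16), and KO_RA was 0.30 ± 0.11 higher than KO (adjusted p = 0.247). A further Proz probe set gave -0.26 and 0.40 for these differences. In WT_RA against WT it gave -0.14, where the one used gave 0.19. In KO_RA against WT_RA it gave 0.27, where the one used gave -0.23. Serpinc1, the antithrombin gene, was lower by 0.23 ± 0.10 in KO than in WT without overlap (adjusted p = 0.276). Proc, the protein C gene, and Serpind1, the heparin cofactor gene, had differences between -0.12 and 0.14 over the 4 comparisons.

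Of fibrinolysis, Plg and Serpinf2 differed most in KO mice on RA, and both rested in part on KO 1. Plg, the precursor of plasmin, read 13.26, 13.46 and 13.34 in KO_RA, 12.46, 13.13 and 13.21 in KO, 13.21, 13.33 and 13.03 in WT_RA, and 13.23, 13.28 and 13.22 in WT. The KO 1 value of 12.46 lay far below the other KO values, and KO_RA exceeded KO by 0.42 ± 0.16 (adjusted p = 0.282). Serpinf2, the plasmin inhibitor gene, read 12.46, 12.68 and 12.43 in KO_RA, 11.79, 12.31 and 12.41 in KO, 12.33, 12.35 and 12.21 in WT_RA, and 12.27, 12.23 and 12.36 in WT. It differed by 0.35 ± 0.14 in KO_RA against KO (adjusted p = 0.296), again with the lowest value on KO 1, and was higher by 0.22 ± 0.14 in KO_RA than in WT_RA (adjusted p = 0.449). The differences of RA effects were 0.48 for Plg and 0.34 for Serpinf2 (adjusted p = 0.449 and 0.551).

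Set side by side, complement and clotting parted most in KO mice on RA. There the median difference was 0.04 over the 15 complement genes and 0.21 over the 20 clotting genes, whereas the median of all genes was -0.03. Of the clotting genes 16 of 20 were higher in KO_RA, against 8 of 15 complement genes and 43% of all genes. Over all 35, 24 were positive in KO_RA against KO, 22 in WT_RA against WT (47.3% of all genes), 11 in KO against WT (54.9%), 19 in KO_RA against WT_RA (52.4%) and 18 in the difference of RA effects (45%). Without KO 1 these medians were -0.03 and 0.15. In WT_RA against WT the medians were 0.06 and 0.04, in KO against WT -0.07 and -0.06, and in KO_RA against WT_RA 0.04 and -0.01. Complement minus clotting was thus -0.17 in KO mice on RA, against -0.01 to 0.05 in the other 3 comparisons, a description with no test. Within complement, the median for KO_RA against KO was -0.20 over the 6 terminal components, 5 of them negative. It was 0.17 over the 5 classical and lectin genes and 0.22 over the 3 regulators (Cfi, C4bp and Vtn), and Cfb differed by 0.41. The lower median of complement was thus that of its terminal components and not of its other groups. Limma called 0 of the 35 for the difference of RA effects between genotypes, where 0.00807% of all genes were called. The medians of that difference were -0.06 for complement and 0.05 for clotting.

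**Figure D4:**
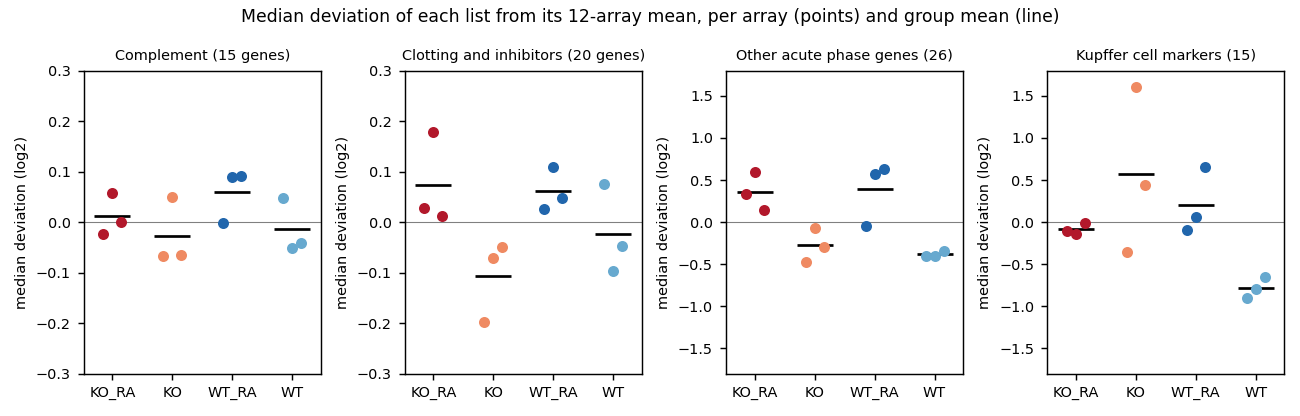
Median deviation (log2) of the genes of a list from their 12-array means on each array (points) with the group mean (line), for the 15 complement genes, the 20 clotting genes, 26 other acute phase genes and 15 Kupffer cell markers in KO_RA, KO, WT_RA and WT. The axes of the complement and clotting panels are narrower. Clotting arrays lie at 0.01 to 0.18 in KO_RA and -0.20 to -0.05 in KO, and Kupffer markers spread from -0.35 to 1.60 in KO.

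Other genes of both pathways, from lists of receptors, regulators and factors made by other cells, held further calls. Of 23 further complement genes measured of 40 listed, 1 rose under RA in wild type mice and 0 were called in the other comparisons. It was Fcna, which encodes the lectin ficolin A, with 8.63, 8.64 and 8.95 in KO_RA, 8.35, 8.71 and 8.32 in KO, 8.64, 8.84 and 9.26 in WT_RA, and 8.05, 7.86 and 7.77 in WT. All WT_RA arrays lay above all WT arrays, by 1.03 (limma adjusted p = 0.0113), a call lost without WT 2 (adjusted p = 0.05004) or WT 3 (0.0585). Of 34 further clotting genes measured of 41 listed, 2 rose under RA in wild type mice, 1 rose and 1 fell under RA in KO mice, and 2 fell in KO_RA relative to WT_RA. Gas6, a vitamin K dependent ligand of receptor kinases and a relative of protein S, read 6.28, 6.38 and 5.77 in KO_RA, 6.35, 6.32 and 6.50 in KO, 7.91, 8.18 and 8.39 in WT_RA, and 6.67, 6.88 and 7.05 in WT. The WT_RA arrays were the 3 highest of the 12. Gas6 rose by 1.29 in WT_RA relative to WT (adjusted p = 0.00343) and fell by 2.02 in KO_RA relative to WT_RA (adjusted p = 0.00014). Both calls held in all 12 fits with 1 array removed.

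Thbd, the thrombomodulin gene of endothelium, read 5.48, 6.02 and 5.51 in KO_RA, 5.30, 4.90 and 4.89 in KO, 5.82, 6.55 and 5.64 in WT_RA, and 5.04, 4.66 and 4.56 in WT. WT_RA lay above WT, by 1.25 (limma adjusted p = 0.0236), and every value except that of WT_RA 2 was below the median of its array. The Thbd call was lost without WT 2, WT 3 or WT_RA 2 (adjusted p = 0.088, 0.0985 and 0.0664) and with only the compared groups fitted (0.0602). F8, the cofactor of factor IX, read 5.39, 5.72 and 5.78 in KO_RA, 6.88, 7.21 and 6.71 in KO, 5.80, 5.81 and 6.26 in WT_RA, and 6.12, 6.21 and 6.37 in WT. F8 fell by 1.30 in KO_RA relative to KO (adjusted p = 0.0074), with the KO values above and the KO_RA values below the array medians. Itih3, a plasma protease inhibitor chain of the acute phase, read 13.09, 13.42 and 13.03 in KO_RA, 11.87, 12.62 and 12.22 in KO, 12.61, 13.06 and 13.05 in WT_RA, and 12.24, 12.20 and 12.34 in WT. It rose by 0.94 in KO_RA relative to KO (adjusted p = 0.0452), a call lost in 9 of the 12 fits with 1 array removed (adjusted p up to 0.179). Vkorc1, the reductase that recycles vitamin K, read 11.67, 11.69 and 11.63 in KO_RA, 12.0001, 11.98 and 11.94 in KO, 12.04, 11.95 and 12.13 in WT_RA, and 12.05, 12.02 and 12.09 in WT. The KO_RA arrays were the 3 lowest, and Vkorc1 fell by 0.38 relative to WT_RA (adjusted p = 0.0177). The call was lost without WT_RA 1, WT_RA 3, KO_RA 1 or KO_RA 3 (adjusted p of 0.0552 to 0.0754), with only the compared groups fitted (0.0529) and without both KO 1 and WT_RA 3 (0.0663).

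Other acute phase genes (26 measured) had larger median differences under RA than complement and clotting. Their median difference was 0.90 in WT_RA against WT, with 9 called as higher, against 0.871% of all genes. It was 0.60 in KO_RA against KO, with 5 called as higher, against 34 of all 12393 genes. Itih3 is 1 of these 5 and was also counted among the further clotting genes above. Of the markers of Kupffer cells, the liver macrophages, 15 of 15 were positive in WT_RA against WT (median 1.06, 1 called, Cd163) and in KO against WT (median 1.27, 0 called), and 0 of 15 in KO_RA against KO (median -0.63, 0 called). In KO_RA against WT_RA 1 of 15 was positive (median -0.35), and Cd163 was called as lower (-0.79, limma adjusted p = 0.0381). Without WT_RA 3 that median was -0.045, with 7 of 15 positive. Without KO 2 the median was 0.75 in KO against WT and -0.065 in KO_RA against KO, with 4 of 15 positive there, and without KO 1 it was -1.15 in KO_RA against KO. Their mean signal ranged from 7.50 to 7.67 in KO_RA, 7.23 to 9.24 in KO, 7.54 to 8.33 in WT_RA and 6.83 to 7.04 in WT. No marker reads 0 on this log2 scale. The part of these markers in the complement and clotting values was not tested. C1qa, C1qb, C1qc and Vsig4 are among them and were also counted among the further complement genes above. Among 28 measured regulators, Cebpa fell by 0.85 in WT_RA relative to WT (limma adjusted p = 0.0102), a call lost without WT_RA 2 (0.0532). Cebpa was higher by 0.53 in KO_RA than in WT_RA (adjusted p = 0.0448). That call was lost without KO_RA 1 (0.175) and in further fits. Nfkbiz rose by 2.56 in WT_RA relative to WT (adjusted p = 0.00966) and by 2.11 in KO_RA relative to KO (0.0419). Nr5a2 fell by 0.56 in KO relative to WT (adjusted p = 0.018). Rarb was called as higher in WT_RA than in WT. Cyp26a1 was called as higher under RA in both genotypes and lower in KO_RA than in WT_RA. Cebpb fell by 0.87 in KO relative to WT (adjusted p = 0.0423) and rose by 1.14 in KO_RA relative to KO (adjusted p = 0.0252), calls lost in 10 and 5 of the 12 fits with 1 array removed (adjusted p up to 0.159 and 0.0914).

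The genes whose pattern over the 12 arrays was most like that of Kng1 were Prtn3 (Pearson r = 0.969), Il33 (0.955), Trim24 (0.945), Glce (0.945) and Itih4 (0.943). Those most like Mbl2 were Mdfic (0.907), Dram2 (0.885), Ctcf (0.871), Acadvl (0.87) and Slc22a5 (0.864). These correlations are across 12 arrays that fall into 4 groups, and are given as a description.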

How the data were processed

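Expression in 12 livers was measured on Affymetrix arrays, 1 array per mouse, and groups were taken from the titles of the samples. The authors deposited log2 values, 1 per probe set and array, for which the submitters' processing notes name RMA and Partek 6.11, whereas the methods of the study name MAS5. Scanner files were not used here. Of 22690 probe sets, 20380 had 1 gene symbol in the platform annotation, 691 several and 1555 none (64 were controls), and where a gene had several, that of highest mean was taken. No filter on dim probe sets was set. The p-values come from limma 3.58.1 in R 4.3.3 (1 coefficient per group, 8 residual degrees of freedom, two-sided), with Benjamini-Hochberg adjustment over 12393 genes. The number of arrays limits the precision of each value. The fit was also run on simulated data in which genes varied independently and no array stood apart. The outcome is not reported here.

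The members and lists were chosen with earlier results of these data known. Values on every array are given for genes called in any of the 5 comparisons and for the 3 largest increases and 3 largest decreases in each, and the other genes by range. Of further pathway genes, those called are named, and for Kng1 and Mbl2 the 5 genes of highest correlation. Promoters came from RefSeq tables of GRCm38.p6. Alternatives were a replicate block, a further quantile normalization, median centring, the mean of probe sets, a filter on dim probe sets, another variance model, array weights, only the groups compared, and arrays left out.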

Additional observations from a re-analysis of the deposited data

How the results depend on the processing

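Of the 35 genes 2 were called for RA in wild type mice, and the count was 0 with only the compared groups fitted or without KO 1 and WT_RA 3. It was 1 (Kng1) with median centring, 1 (C8g) with the mean of probe sets, 10 with array weights, and 0 to 2 with 1 array left out. For RXRα deficiency on normal diet the count of 0 was 2 (C4bp and F11) after quantile normalization, 9 with array weights, 1 (C4bp) without KO 1 and WT_RA 3, and 0 with any 1 array left out. For RA in KO mice the count of 0 was 1 (F11) after quantile normalization, 4 (C8b, F11, F12 and Kng1) with array weights, and 0 with any 1 array left out. For RXRα deficiency under RA the count of 1 was 2 (Mbl1 and Mbl2) with median centring, a filter on dim probe sets, array weights or only the compared groups, and 0 to 2 with 1 array left out. No member was called for the difference of RA effects in any of the 20 alternatives. The median of complement minus that of clotting for RA in KO mice was -0.27 with the mean of probe sets. For the difference of RA effects it was -0.12 and ranged from -0.18 to 0.011 with 1 array left out, the sign turning without KO 2. The causes were not tested.

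Over all genes the calls numbered 158 for RA in wild type mice (47 to 1070 over all alternatives), 163 for RXRα deficiency on normal diet (51 to 1734), 62 for RA in KO mice (6 to 303), 490 for RXRα deficiency under RA (170 to 1064) and 1 for the difference of RA effects (0 to 247). The titles do not say whether the replicate numbers pair the mice. Deviations of arrays with the same number correlated by -0.46 to 0.27, above 0.1 in 5 of 18 pairs. Arrays with different numbers were not set beside them, so pairing stays unknown. With the replicate number as a block, 0 of the 35 genes were called under RA in wild type mice (Kng1 adjusted p = 0.0646, C8g 0.0808), and Mbl2 stayed called under RA.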
